A study of Mus musculus with 30 samples.

Results

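The 9 genes described here encode selectins, a selectin ligand, immunoglobulin-family adhesion molecules and integrin chains through which leukocytes attach to and cross the vessel wall. They were Sele, Selp, Selplg, Vcam1, Icam1, Icam2, Itga4, Itgb1 and Itgb2. They were taken by name from a table of 43346 mouse gene IDs, and all 9 were found in it. Earlier results of these data were known when they were chosen. RNA had been sequenced from 30 libraries of sorted mouse stromal cells, of which 23 came from tissue with tumours grown by human circulating tumour cells (CTCs) and 7 from mice without tumours. CTC lines are cultures grown from tumour cells caught in patients' blood. The exposed mice were NSG females, aged 6 to 8 weeks at inoculation, with slow-release estrogen under the skin. NSG mice are an immunodeficient strain that keeps myeloid cells and lacks mature lymphocytes. Each exposed mouse received 100000 CTCs that carried GFP and luciferase, through the left cardiac ventricle. After dissociation, cells without GFP were sorted, and RNA was taken from 50000 of them. Exposed bone held 2 Brx07, 4 Brx50 and 7 Brx68 libraries and had 3 control libraries. The 7 exposed lung libraries were 2 of Brx07, 1 of Brx42, 3 of Brx50 and 1 of Brx68, beside 2 controls. Exposed brain had 3 Brx50 libraries and 2 controls. The sources used here do not give the strain or age of the control mice, or whether they carried estrogen. The sort removed GFP-bearing cells only, so every kind of mouse cell could enter a library, and human cells without GFP could too.

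Leukocytes leave the blood in steps. Selectins on activated endothelium, E-selectin (Sele) and P-selectin (Selp), catch flowing cells through carbohydrates on PSGL-1, the product of Selplg, and the cells roll. Chemokine signals then switch on leukocyte integrins, which bind Vcam1, Icam1 and Icam2 on the endothelium and hold the cells still before they cross. Marrow sinusoids are known to carry E-selectin, P-selectin and Vcam1 without inflammation, whereas vessels of a healthy brain carry little of any selectin. The same molecules are known to help circulating tumour cells attach in marrow and lung.

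Total counts per library ran from 4289012 to 15646947. Lung and brain libraries carried markers of their tissue: the summed level of 4 lung epithelial genes was 127.8 to 4363 CPM (counts per 1000000 counts of the library) in lung against at most 6.06 elsewhere, and 4 astrocyte genes summed to 1711 to 4985 CPM in brain against at most 348 elsewhere. Of 12 endothelial markers, Cldn5 was at 0 in all 30 libraries and the other 11 had counts. The endothelial sum was 2420 to 2681 CPM in bone controls and 522 to 4039 with tumour. In lung it was 7880 and 9389 CPM in controls and 279 to 11128 with tumour, and in brain 229 and 341 in controls against 407 to 460 with tumour. Lymphocyte markers summed to at most 42.7 CPM in any library. Several libraries stood apart. Exposed bone split by its neutrophil sum, which was 19329 to 53859 CPM in 5 libraries and 4.39 to 2344 in the other 8, against 29665 to 39348 in bone controls. In exposed bone, Brx68 replicates 1 and 6 had counts for only 14769 and 16256 genes, against 21233 to 25688 in the other 11. Lung exposed Brx50 replicate 3 had an endothelial sum of 279 CPM, and Brx07 replicate 1 of 2201. All 3 exposed brain libraries carried pituitary hormone genes (Gh, Prl and Pomc) at 662 to 1995 CPM in sum, against 9.59 and 9.89 in controls. In exposed bone that sum was 696 CPM in Brx50 replicate 4, 164 and 80.0 in Brx50 replicates 2 and 3 and 77.4 in Brx68 replicate 3, against at most 0.85 in bone controls. Brx50 replicate 4 was also among the high libraries for Sele, Selp and Icam1, and the part of such cells was not tested.

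**Figure D1:**
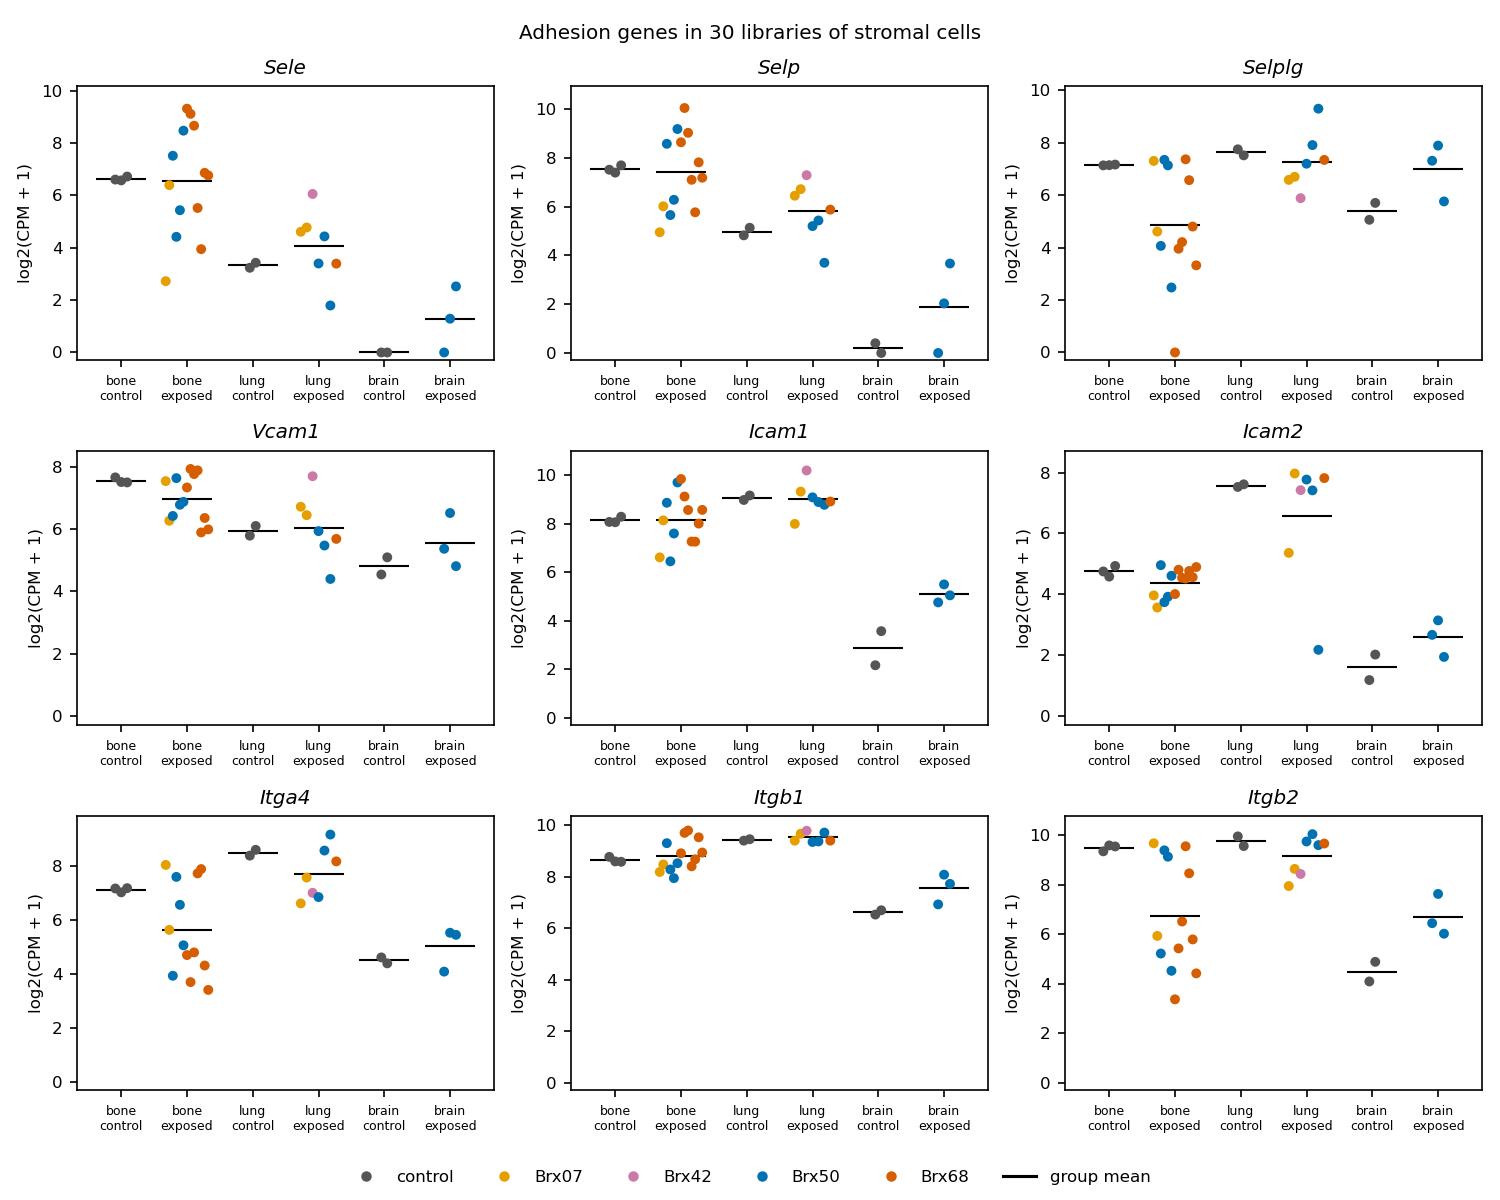
Each point is 1 library and each panel 1 gene, with log2(CPM + 1) on the vertical axis, the 6 groups of tissue and exposure along the horizontal axis, and colour for the CTC line. Bone controls lie close together while exposed bone libraries spread both above and below them, and Sele and Selp lie at or near 0 in brain.

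The first comparison set tumour-free stroma of the 3 tissues against one another, in a fit of the 7 control libraries. Sele, Selp and Vcam1 were higher in bone than in lung, while Icam2, Itga4, Icam1, Itgb1 and Selplg were lower in bone, so 8 of the 9 genes differed between these tissues. All 9 were higher in bone than in brain and higher in lung than in brain. Genes that differ between tissues are common: of 18859 genes tested, 44.8% passed the threshold between bone and lung, with 22.5% higher and 22.3% lower in bone. The share was 75.8% between bone and brain, with 37% higher in bone, and 72% between lung and brain, with 34.6% higher in lung. The median log2 difference of the 9 genes was -0.52 for bone against lung, 3.68 for bone against brain and 5.45 for lung against brain, and that of all genes tested was 0.00, -0.04 and -0.06. The threshold was an adjusted p of 0.05 in edgeR's quasi-likelihood test, with Benjamini-Hochberg adjustment over all genes. Cells of a type being fewer and cells holding less RNA of a gene cannot be told apart in such pooled cells, here and in every result that follows. The labels do not tie libraries to mice, so p-values measure a spread among libraries that may in part be technical.

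The 2 selectins had the widest differences between bone and brain. Sele, which is made by endothelium, stood at 96.5, 94.3 and 105 CPM in the 3 bone controls, at 8.42 and 9.77 in the 2 lung controls, and had no count in either brain control. The 3 tissues did not overlap. The log2 difference between bone and lung was 3.41 (SE 0.14, adjusted p = 8.75e-09 by edgeR). Against brain controls a fold is a lower bound, because a count of 0 allows up to 3 counts over the 2 libraries together: Sele was at least 451-fold higher in bone controls and at least 41.7-fold higher in lung controls. Selp, which endothelial cells and platelets store and release on activation, stood at 182, 167 and 206 CPM in bone controls, 27.3 and 34.1 in lung controls, and 0.319 and 0 in brain controls. Bone lay above lung in every library, by 2.56 on the log2 scale (SE 0.16, adjusted p = 8.15e-08 by edgeR). Only 2 Selp counts came from the brain controls, so its ratio was imprecise: 1275 for bone over brain (95% counting interval 353 to 10532) and 211 for lung over brain (58.2 to 1748). These intervals cover counting error only. The sum of 8 megakaryocyte and platelet markers was 32.4 to 55.6 CPM in bone controls and 24.1 and 24.6 in lung controls, with Gp1ba at 0 in all of these, and its part in the Selp levels was not tested.

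Sele and Selp lie close together. On GRCm38, Sele lies on chromosome 1 at chr1:164048234-164057677 and Selp at chr1:164115264-164150026, both on the plus strand. From the start of Sele to the end of Selp is 101793 bases. Within the 6 groups of tissue and exposure, the gene most like Sele over the 30 libraries was Selp (Pearson r 0.92 of log2(CPM + 1) after subtracting each group's mean, among 10816 genes), and Icam1 stood at r 0.81 with Sele. These correlations are descriptions. Their points share libraries, depth and cell makeup. Of the selectins and the ligands of integrins, Sele, Selp and Icam1 were the 3 whose levels went together most closely. The sequences around their starts are given here from 250 bases before to 50 bases after the start, as RefSeq gives them on GRCm38.p6. They lie at chr1:164047984-164048283, chr1:164115014-164115313 and chr9:21015690-21015989, all on the plus strand, and are written 5′ to 3′ with the matches to the motifs GGANNTTCC and TGANTCA in capitals.
Sele: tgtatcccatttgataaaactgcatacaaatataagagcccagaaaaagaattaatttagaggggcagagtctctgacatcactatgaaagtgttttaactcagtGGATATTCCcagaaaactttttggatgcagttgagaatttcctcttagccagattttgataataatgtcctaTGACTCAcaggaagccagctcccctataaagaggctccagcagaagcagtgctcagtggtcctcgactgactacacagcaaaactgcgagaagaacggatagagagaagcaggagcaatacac
Selp: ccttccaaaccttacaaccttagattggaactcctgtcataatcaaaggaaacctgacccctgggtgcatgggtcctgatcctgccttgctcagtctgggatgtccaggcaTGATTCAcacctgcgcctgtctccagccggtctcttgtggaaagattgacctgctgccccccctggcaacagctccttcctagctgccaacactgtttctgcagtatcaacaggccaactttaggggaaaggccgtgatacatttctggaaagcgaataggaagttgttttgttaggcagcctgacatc
Icam1: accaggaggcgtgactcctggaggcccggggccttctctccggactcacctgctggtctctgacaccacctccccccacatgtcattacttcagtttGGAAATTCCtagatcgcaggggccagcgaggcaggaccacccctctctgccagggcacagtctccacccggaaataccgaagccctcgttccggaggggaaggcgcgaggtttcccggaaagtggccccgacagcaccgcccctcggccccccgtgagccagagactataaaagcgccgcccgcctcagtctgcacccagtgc
GGANNTTCC is a shortened form of the site of NF-kB, a transcription factor that inflammatory cytokines activate. TGANTCA is a loosened form of the site of AP-1, whose middle base is C or G. The Sele window held GGATATTCC from position -145 and TGACTCA from position -73, counted from the start site. The Selp window held TGATTCA from position -139, which has T as its middle base, and the Icam1 window held GGAAATTCC from position -153. Searched on both strands of 32851 windows of the same length, GGANNTTCC was found in 4.26% and TGANTCA in 7.81%. GGANNTTCC was chosen after the windows had been read, because the full NF-kB consensus, found in 8.46% of windows, had no match in those of the 5 members that the table held (these 3, Itga4 and Itgb1). The letters TATAAA stood from position -49 in Sele and from position 14 in Icam1, and in 13.6% of windows. For Icam1 the GENCODE annotation starts at chr9:21015985, downstream of these letters and of the RefSeq start from which positions are counted. Matches and missing matches describe letters in these windows only. Selplg, Vcam1, Icam2 and Itgb2 had no entry.

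Among the endothelial ligands of integrins, Vcam1 followed the selectins and the Icam genes ran the other way. Vcam1, the ligand of the integrin of Itga4 and Itgb1, stood at 202, 182 and 180 CPM in bone controls, 54.4 and 67.7 in lung controls and 22.3 and 33.2 in brain controls. The groups did not overlap, and bone exceeded lung by 1.59 on the log2 scale (SE 0.16, adjusted p = 4.55e-06 by edgeR). Icam2, which resting endothelium makes, stood at 25.9, 23.0 and 29.5 CPM in bone controls against 183 and 195 in lung controls, and at 1.28 and 3.06 in brain controls. Its log2 difference between bone and lung was -2.88 (SE 0.15, adjusted p = 1.81e-08 by edgeR). The endothelial sum was also lower in bone than in lung controls, and its part in the Icam2 difference was not tested. Sele, Selp and Vcam1 were higher in bone although that sum was lower there. Icam1, which cytokines induce on many cells, stood at 268, 266 and 311 CPM in bone controls, 503 and 572 in lung controls and 3.51 and 10.9 in brain controls. Lung exceeded bone in every control, with a log2 difference of -0.96 for bone against lung (SE 0.23, adjusted p = 0.00584 by edgeR). That call was lost without lung control replicate 2 (adjusted p = 0.0619) and with DESeq2 (adjusted p = 0.0847), which called 39.3% of all genes.

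Of the genes of the leukocyte side, Selplg and Itga4 were lower in bone than in lung, and Itgb2 did not pass the test. Itgb2, the beta chain shared by the leukocyte integrins that bind Icam1 and Icam2, stood at 653, 771 and 749 CPM in bone controls and 992 and 757 in lung controls. Those ranges overlapped and the gene did not pass the test (log2 difference -0.30, SE 0.20, adjusted p = 0.253 by edgeR). In brain controls Itgb2 stood at 16.1 and 28.6 CPM. Selplg stood at 140, 141 and 143 CPM in bone controls, 214 and 182 in lung controls and 32.4 and 51.2 in brain controls. Its difference between bone and lung was -0.52 on the log2 scale (SE 0.16, adjusted p = 0.0172 by edgeR), and the call was lost without lung control replicate 1 (adjusted p = 0.177). Itga4, the alpha chain of the Vcam1 receptor, stood at 143, 130 and 144 CPM in bone controls, 334 and 388 in lung controls and 23.6 and 20.1 in brain controls. Both lung controls lay above every other control, with a log2 difference of -1.41 for bone against lung (SE 0.11, adjusted p = 8.37e-07 by edgeR). Itgb1, the beta chain that pairs with many alpha chains on most cell types, stood at 434, 384 and 380 CPM in bone controls, 672 and 699 in lung controls and 91.1 and 102 in brain controls. Its gradient over the tissues was the shallowest from bone to brain after that of Selplg, at 2.19 on the log2 scale (SE 0.14, adjusted p = 1.51e-08 by edgeR) against 1.89 (SE 0.18, adjusted p = 9.16e-07). Ptprc, the gene of the leukocyte antigen CD45, stood at 406 to 567 CPM in bone controls, 742 and 879 in lung controls and 22 and 31.8 in brain controls, and its part in these differences was not tested.

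Levels of different genes can be set side by side only per length. In CPM per kilobase of annotated exon, the order of mean levels in bone controls was Itgb2 at 237 ± 20.5 (SD, n = 3), Itgb1 at 97.9 ± 7.36, Icam1 at 64.7 ± 5.86, Selp at 42.0 ± 4.45, Sele at 33.8 ± 1.85, Selplg at 33.0 ± 0.37, Vcam1 at 21.2 ± 1.35, Icam2 at 13.7 ± 1.73 and Itga4 at 9.96 ± 0.59. Sele and Selplg did not differ beyond their spread. In lung controls Itgb2 led at 287 ± 54.5 (SD, n = 2), and Icam2 at 99.3 ± 4.21 came next after Itgb1 and Icam1, while Sele was last at 3.12 ± 0.33. Selp at 6.96 ± 1.09 and Vcam1 at 6.88 ± 1.06 could not be ordered there. In brain controls Itgb1 led at 23.7 ± 1.95 (SD, n = 2), ahead of Selplg at 9.78 ± 3.11 and Itgb2 at 7.33 ± 2.91, which overlapped. Icam1, Itga4 and Icam2 followed Vcam1 at 1.66 ± 1.20, 1.56 ± 0.18 and 1.14 ± 0.66 and overlapped as well. The ratio of Sele to Selp per length was 0.77 to 0.85 in bone controls and 0.43 and 0.47 in lung controls.

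**Figure D2:**
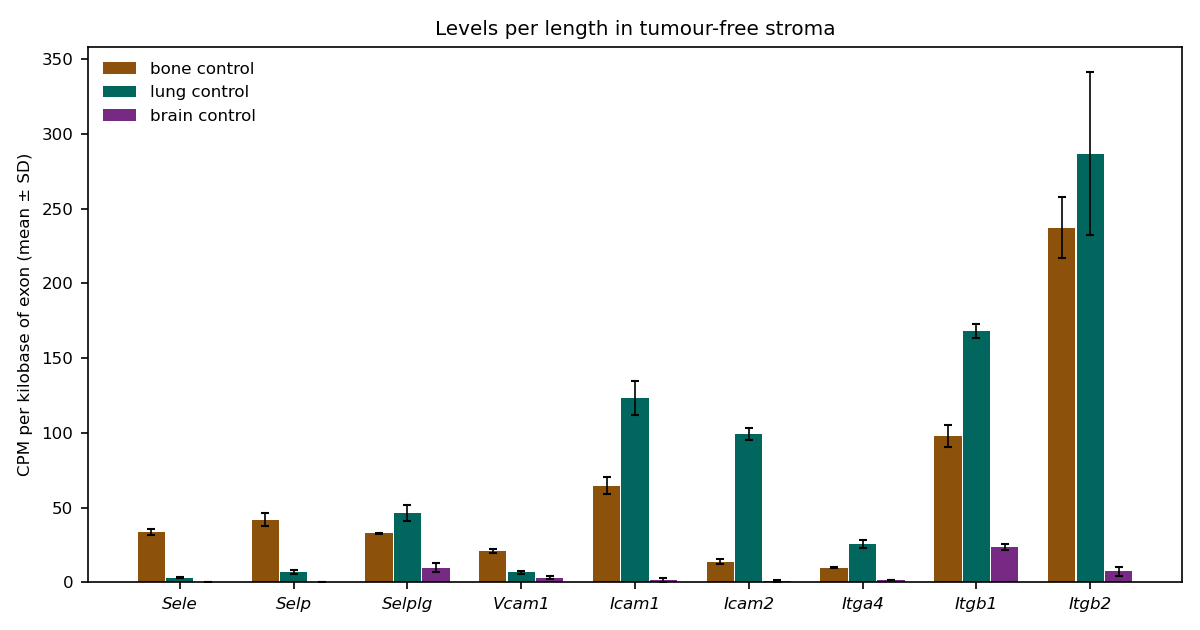
Bars give the mean level in tumour-free stroma in CPM per kilobase of exon, starting at 0, with SD as error bars, for each gene in bone (3 libraries), lung (2) and brain (2). Sele, Selp and Vcam1 are highest in bone, while Icam1, Icam2, Itga4 and Itgb1 are highest in lung.

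The second comparison set exposed against control stroma within each tissue, the contrast for which the series was designed. None of the 9 genes passed the threshold in bone or lung, and none of the 8 tested passed it in brain by edgeR's quasi-likelihood test. Over all genes that test called 0% in bone, 0% in lung and 0.00598% in brain. At an unadjusted p under 0.05 it found 0 of 9 genes in bone, 0 of 9 in lung and 4 of 8 in brain, against 2.51%, 0.689% and 13.6% of all genes. DESeq2 called none of the 9 in bone or lung and 3 in brain, and limma-voom with quality weights called 3 in bone, none in lung and 3 in brain. In these runs DESeq2 called 0.093%, 0.0175% and 4.25% of all genes in bone, lung and brain, and limma-voom 15.7%, 0.00584% and 5.37%. No member had every exposed library on one side of the controls in bone or lung, which 0.0328% of all genes had above and 0.202% below in bone, and 1.02% above and 2.01% below in lung. The exposed libraries of bone and lung spread wider than their controls.

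In exposed bone, Sele had a median of 108 CPM and ran from 5.61 (Brx07 replicate 1) to 636 (Brx68 replicate 1), against 94.3 to 105 in controls. Of the 13 libraries, 7 lay above every control and 6 below. The fitted log2 fold change was 1.00 (SE 1.11, adjusted p = 0.970 by edgeR). Selp ran from 29.9 to 1056 CPM with a median of 145, against 167 to 206 in controls, and Brx68 replicate 2 was the highest. It lay above every control in 6 libraries and below in 7 (log2 fold change 0.67, SE 0.93). Icam1 ran from 86.5 to 915 CPM with a median of 281, against 266 to 311 in controls, with 6 libraries above and 6 below (log2 fold change 0.32, SE 0.60). The 3 genes were therefore found on both sides of the controls within 1 tissue.

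Vcam1 ran from 58.5 to 243 CPM in exposed bone with a median of 117, against 180 to 202 in controls, and lay below every control in 8 of 13 libraries (log2 fold change -0.41, SE 0.45). Icam2 was the steadiest of the 9, at 10.9 to 30.1 CPM with a median of 22.3 against 23.0 to 29.5 in controls (log2 fold change -0.34, SE 0.33). Itgb1 ran from 244 to 884 CPM with a median of 407 against 380 to 434 in controls, with 6 libraries above and 6 below (log2 fold change 0.29, SE 0.42). All these fits had adjusted p = 0.970 by edgeR. None of these 3 genes kept to one side of the controls.

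The genes of the leukocyte side had low medians in exposed bone. Itgb2 ran from 9.37 to 818 CPM with a median of 60.2, against 653 to 771 in controls. It lay below every control in 10 of 13 libraries (log2 fold change -1.44, SE 1.04, adjusted p = 0.970 by edgeR). Selplg had a median of 23.5 CPM against 140 to 143 in controls, with a highest value of 164, and had no count in Brx68 replicate 1, where a count of 0 allows up to 0.391 CPM. It lay below every control in 9 of 13 libraries (log2 fold change -1.16, SE 1.06). Itga4 ran from 9.68 to 263 CPM with a median of 32.6 against 130 to 144 in controls, and 9 of 13 libraries lay below every control (log2 fold change -0.63, SE 0.89). Limma-voom with quality weights called these 3 genes lower in exposed bone, at log2 fold changes of -2.74, -2.23 and -1.66 (adjusted p = 0.00762, 0.0182 and 0.0235), in a run that called 15.7% of all genes.

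In exposed bone, Itgb2, Selplg, Itga4, Sele and Icam1 separated between libraries of high and of low neutrophil sum. In the 5 libraries with a sum above 10000 CPM, Itgb2 ran from 352 to 818 CPM, Selplg from 94.2 to 164 and Itga4 from 93.9 to 263. In the other 8, Itgb2 ran from 9.37 to 90.6 CPM, Selplg from 0 to 26.9 and Itga4 from 9.68 to 48.9, so that none of the 3 genes overlapped between these sets of libraries. Every library of the 5 lay above every one of the 8 for 6.64% of all genes, and below for 3.82%. Sele went the other way, at 5.61 to 44.9 CPM in the 5 libraries and 83.1 to 636 in the 8. Icam1 did so too, at 86.5 to 193 CPM in the 5 and 256 to 915 in the 8, as did Selp in its medians of 53.6 and 390 CPM, though its ranges overlapped. Icam2 and Vcam1 overlapped widely, at 12.4 to 26.2 and 58.5 to 236 CPM in the 5 and 10.9 to 30.1 and 62.7 to 243 in the 8. Itgb1 had medians of 309 CPM in the 5 and 558 in the 8, with ranges that overlapped. The endothelial sum was 522 to 3089 CPM in the 5 libraries and 1198 to 4039 in the 8, and that of fibroblast and marrow stroma genes 5133 to 11607 and 11228 to 68942, and their part in these levels was not tested. The division is a description made on these libraries, is not one of the study's groups, and was not tested. Bone controls, at 29665 to 39348 CPM of neutrophil markers, held 94.3 CPM of Sele or more, above each of the 5.

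**Figure D3:**
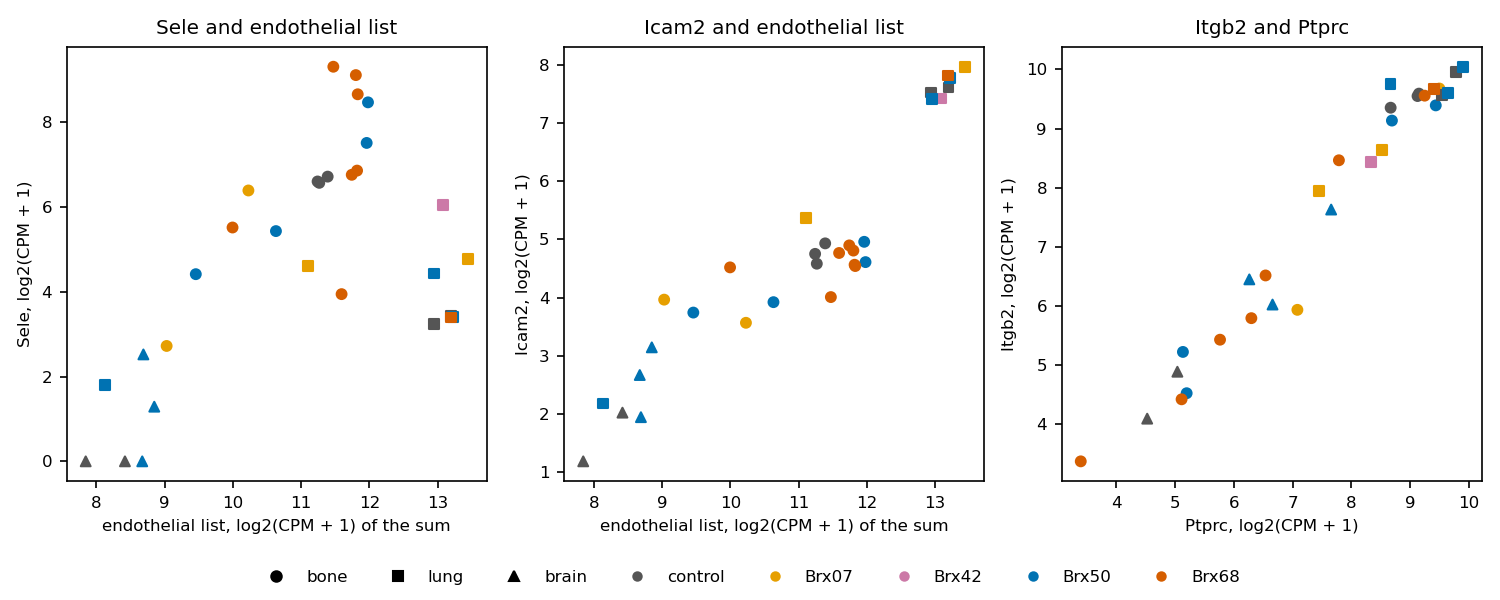
Each point is 1 of the 30 libraries on log2(CPM + 1) axes, with shape for tissue and colour for CTC line or control. Icam2 climbs with the summed endothelial markers and Itgb2 with Ptprc across all tissues. Sele lies far higher in bone controls than in lung controls, at lower endothelial sums. Exposed bone libraries spread in Sele from within the range of lung to far above it.

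By CTC line, exposed bone allowed 1 comparison, of 7 Brx68 with 4 Brx50 libraries. None of the 9 genes passed the threshold by edgeR's quasi-likelihood test, which called 0% of 19052 genes. At an unadjusted p under 0.05 that test found 0 of 9, against 4.83% of all genes. DESeq2 called 0.231% of all genes there and limma-voom 0%, and neither called a member. Sele stood at 268 ± 258 CPM (SD, n = 7) with Brx68 and 150 ± 154 (n = 4) with Brx50 (log2 difference 0.98, SE 1.05, adjusted p = 0.979 by edgeR). Itgb1 had the smallest p of the 9, at 594 ± 218 against 387 ± 168 CPM (log2 difference 0.73, SE 0.41, adjusted p = 0.967 by edgeR). Within a line, Sele ran from 14.4 to 636 CPM with Brx68 and from 20.4 to 355 with Brx50. The 2 Brx07 libraries, one from leg and one from skull and marked with the same code in their titles, differed 14.8-fold in Sele. The leg library had a neutrophil sum of 44438.5 CPM and an endothelial sum of 522, and the skull library 2344 and 1198. Neuronal and astrocyte markers summed to 1.40 and 8.81 CPM in the leg library and to 182 and 301 in the skull library. The part of these cells in the Sele difference was not tested.

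In exposed lung, the selectins had medians above the controls. Sele stood at 23.4 and 26.4 CPM with Brx07, 65.6 with Brx42, 9.55, 20.6 and 2.47 with Brx50 and 9.51 with Brx68, against 8.42 and 9.77 in controls. It lay above both controls in 4 of 7 libraries, and below both in Brx50 replicate 3 (log2 fold change 1.34, SE 0.97, adjusted p = 1.00 by edgeR). Selp stood at 86.4 and 104 CPM with Brx07, 156 with Brx42, 35.9, 42.2 and 12 with Brx50 and 57.8 with Brx68, against 27.3 and 34.1 in controls. All but Brx50 replicate 3 lay above both controls (log2 fold change 1.24, SE 0.78, adjusted p = 1.00 by edgeR). The sum of the 8 megakaryocyte and platelet markers was 22.8 to 85.6 CPM in exposed lung, against 24.1 and 24.6 in controls. It too lay above both controls in all but Brx50 replicate 3, and its part in the Selp levels was not tested. Without the 2 libraries of lowest endothelial sum, the fitted values were 1.56 for Sele and 1.39 for Selp, still with no call.

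The other 7 genes showed no common direction in lung. Vcam1 ran from 20.1 to 207 CPM (controls 54.4 and 67.7), Icam1 from 254 to 1169 (controls 503 and 572), and the Brx42 library was the highest in both. Icam2 ran from 3.53 to 249 CPM (controls 183 and 195), with the lowest values, 3.53 and 40.1, in the 2 libraries of low endothelial sum. Itgb1 kept within 649 to 877 CPM against 672 and 699 in controls. Itgb2 ran from 246 to 1056 CPM (controls 992 and 757), Itga4 from 97.4 to 575 (controls 334 and 388), and Selplg from 58.1 to 629 (controls 214 and 182). In Brx50 replicate 3, Selplg and Itga4 had their highest values and Sele, Selp, Vcam1 and Icam2 their lowest. Fitted log2 fold changes of these 7 lay between -0.42 and 0.46, with adjusted p = 1.00 by edgeR throughout. The sign of Selplg, 0.16, turned to -0.55 without Brx50 replicate 3, and that of Icam1, 0.13, turned to -0.15 without Brx42.

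Brain was the tissue in which all tested members were fitted higher with tumour, as were 51.6% of all genes. The median log2 fold change of the 8 genes was 1.5, against 0.03 over all 16734 genes tested. In 4 of the 8 (Itgb2, Icam1, Selplg and Itgb1), every exposed library lay above both controls, which held for 19.9% of all genes, while 18.6% had every exposed library below. Itgb2 stood at 86.5, 197 and 64.1 CPM in exposed replicates 1 to 3, against 16.1 and 28.6 in controls. Its log2 fold change was 2.30 (SE 0.54, adjusted p = 0.248 by edgeR). DESeq2 and limma-voom called it, with adjusted p = 0.00159 and 0.0232. Icam1 stood at 26.1, 44.3 and 32.2 CPM against 3.51 and 10.9, and the groups did not overlap (log2 fold change 2.18, SE 0.53, adjusted p = 0.248 by edgeR). It passed with DESeq2 (adjusted p = 0.00851), with limma-voom (0.0217) and with edgeR when no filter on low counts was used (0.0231).

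Selplg stood at 158, 237 and 53.2 CPM in exposed brain against 32.4 and 51.2 in controls, so that replicate 3 lay just above the higher control. Its log2 fold change was 1.77 (SE 0.60, adjusted p = 0.320 by edgeR), and DESeq2 placed it at the edge of the threshold (adjusted p = 0.04996). Itgb1 stood at 120, 268 and 209 CPM against 91.1 and 102 (log2 fold change 0.98, SE 0.35, adjusted p = 0.321 by edgeR, 0.0296 by limma-voom). Each of the 3 exposed libraries lay above both controls for these genes. With 1 library left out at a time, the log2 fold change ran from 1.73 to 2.73 for Itgb2, 1.57 to 3.18 for Icam1, 1.31 to 2.14 for Selplg and 0.75 to 1.23 for Itgb1. The extremes for Icam1 came without control replicates 1 and 2. Vcam1, at 40.3, 90.6 and 27.1 CPM against 22.3 and 33.2, overlapped with the controls, as did Icam2, at 5.36, 7.85 and 2.85 CPM against 1.28 and 3.06. Itga4 overlapped too, at 16.1, 45.3 and 42.9 CPM against 23.6 and 20.1, and was fitted at 0.61 (SE 0.46, adjusted p = 0.596 by edgeR).

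The selectins were close to the limit of detection in brain. Sele had no count in exposed replicate 1, where up to 0.699 CPM is allowed, and stood at 1.45 and 4.75 CPM in replicates 2 and 3. With no count in controls it fell below the filter on low counts and was not tested. Pooled over libraries, Sele was at least 9.96-fold higher in exposed brain, a bound that covers counting error only. Replicate 3 gave 30 of the 44 counts, and without it the bound was 4.60-fold. Selp stood at 0, 3.10 and 11.7 CPM in exposed replicates 1 to 3 against 0.319 and 0 in controls, and its log2 fold change was 4.83 with an SE of 2.28 (adjusted p = 0.419 by edgeR). The pooled ratio was 35.3 (95% counting interval 9.53 to 295), and without replicate 3, which gave 74 of 104 counts, 14.8 (3.75 to 127.7). Both selectins thus had counts above the controls in 2 of 3 exposed libraries, and in the third none.

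Markers of other cells also differed between exposed and control brain libraries. Ptprc stood at 75.8, 201 and 99.9 CPM against 22 and 31.8 in controls, 10 markers of monocytes and macrophages summed to 1579 to 3643 CPM against 426 and 688, and 12 endothelial markers to 407 to 460 against 229 and 341. The pituitary sum was also high in all 3, as given above. Neutrophil markers summed to 3799 CPM in replicate 2 and to 25.2 and 126.4 in the other 2, against 17.7 and 18.9 in controls, and 7 of the 8 tested members, all but Selp, had their highest value in replicate 2. Microglial markers summed to 648 to 2382 CPM against 490 and 642, neuronal ones to 514 to 1870 against 2238 and 2908, and astrocyte ones to 1711 to 4714 against 4762 and 4985. Counts were found for 16344, 19139 and 23074 genes in exposed brain, fewer than the 23736 and 24146 in controls, and replicate 1 had the lowest total of all libraries. The part of these cells, and of gene detection, in the brain values was not tested.

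**Figure D4:**
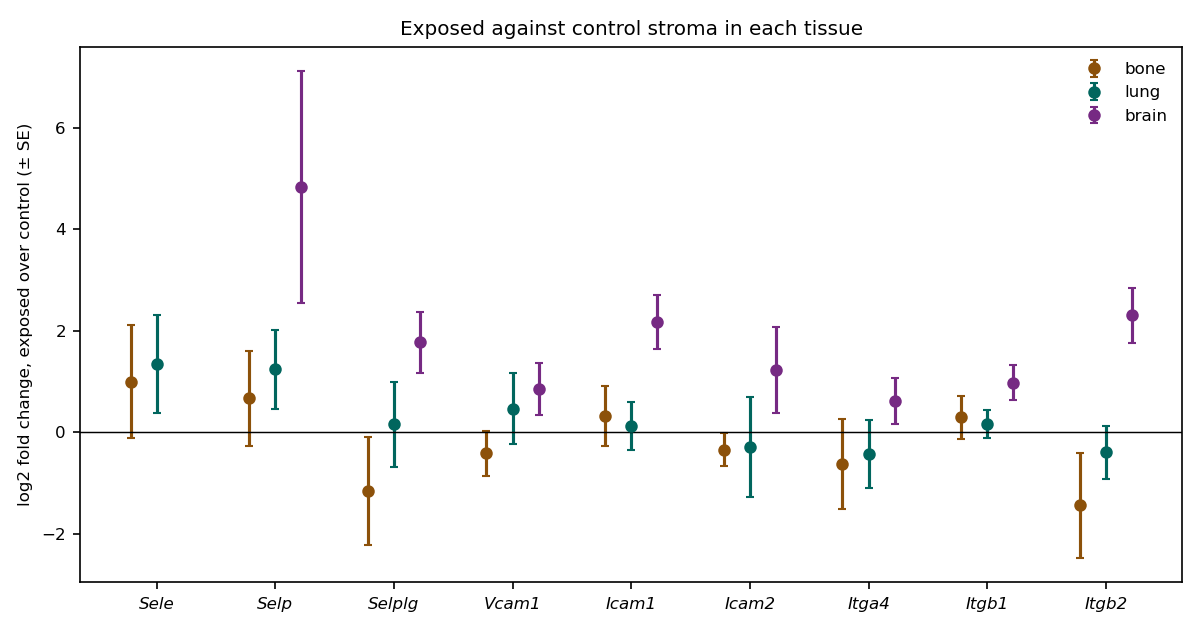
Points give the fitted log2 fold change of exposed over control stroma from edgeR, with SE as bars, for each gene in bone, lung and brain (Sele was not tested in brain). All brain points lie above 0, bone and lung points lie on both sides, and none passed the adjusted threshold.

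Whether the response differed between tissues was tested in a fit of all 30 libraries. None of the 9 genes passed the threshold for bone against lung, bone against brain or lung against brain by edgeR's quasi-likelihood test, which called 0% of 21233 genes each time. Some codes in the library titles recur across tissues within a CTC line. Whether they mark 1 mouse is not stated, and the fit treats the libraries as independent. Itgb2 alone had an unadjusted p under 0.05, for bone against brain, where 8.34% of all genes did. Its exposed minus control difference was lower in bone than in brain by a fitted log2 value of -3.66 (SE 1.76, adjusted p = 0.594 by edgeR). For bone against brain, limma-voom called Itgb2 (-4.56, adjusted p = 0.0126) and Icam1 (-2.37, adjusted p = 0.0446), in a run that called 7.75% of all genes, and DESeq2, which called 0.509%, called no member. For bone against lung DESeq2 and limma-voom called 0.0471% and 1.5% of all genes, for lung against brain 0.127% and 2.14%, and in each case no member. All 9 genes had lower fitted values in bone and in lung than in brain, and these contrasts share the brain libraries. Of all genes, 57.3% were fitted higher for bone against brain and 55.5% for lung against brain.

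Because the cell makeup of libraries differed so widely, each gene but Itgb1 was also set against a marker of cells known to make it. Sele, Selp, Vcam1, Icam1 and Icam2 were taken relative to the mean log2(CPM + 1) of the 12 endothelial markers. Selplg, Itga4 and Itgb2 were taken relative to Ptprc. Icam1 stood at 438 CPM in lung Brx50 replicate 3, where the endothelial sum was 279. Vcam1 stood at 185 CPM in bone Brx07 replicate 1, where that sum was 522. For Icam1 and Vcam1 the scale cannot be read as a level per endothelial cell. Of 24 differences between exposed and control stroma, none passed after adjustment over the 24 (exact two-sided permutation tests over libraries, adjusted p between 0.857 and 0.861). Lung can give no p below 0.0278 and brain none below 0.1. In brain no difference could therefore have passed, and in lung none could unless most of the bone tests had also given p that small. In lung, Selp relative to the endothelial markers was -3.22 and -3.13 in controls and -3.04 to 0.05 in exposed libraries, above both controls in 7 of 7. The mean difference was 1.70 on the log2 scale (exact permutation p = 0.111). Brx50 replicate 3, which was the lowest in Selp itself, was the highest on this scale, and Brx07 replicate 1 came next at 0.02. These libraries had the lowest endothelial sums in lung, 279 and 2201 CPM. For marker-relative values, in any tissue, the share of all genes that keep to one side of the controls was not counted. Sele relative to the same markers was above both controls in 6 of 7 lung libraries, with a mean difference of 1.61 (exact permutation p = 0.167).

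In brain, Icam1 relative to endothelial markers was -1.56 and -0.67 in controls and 0.76, 1.02 and 0.84 in exposed libraries. The groups did not overlap, and the mean difference of 1.99 had the smallest p that 3 against 2 libraries can give (exact permutation p = 0.1). Itgb2 relative to Ptprc was -0.43 and -0.15 in brain controls and 0.19, -0.02 and -0.63 in exposed libraries, a mean difference of 0.13 (exact permutation p = 0.8). On this scale the Itgb2 groups overlapped. Itga4 relative to Ptprc was below both controls in 3 of 3 exposed brain libraries, with a mean difference of -1.56 (exact permutation p = 0.2). In bone, Itgb2 relative to Ptprc lay below every control in 11 of 13 exposed libraries, with a mean difference of -0.65 (exact permutation p = 0.0518, adjusted p = 0.857). Bone Sele relative to endothelial markers lay above every control in 6 libraries and below in 6, with a mean difference of 0.18 (exact permutation p = 0.852).

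**Figure D5:**
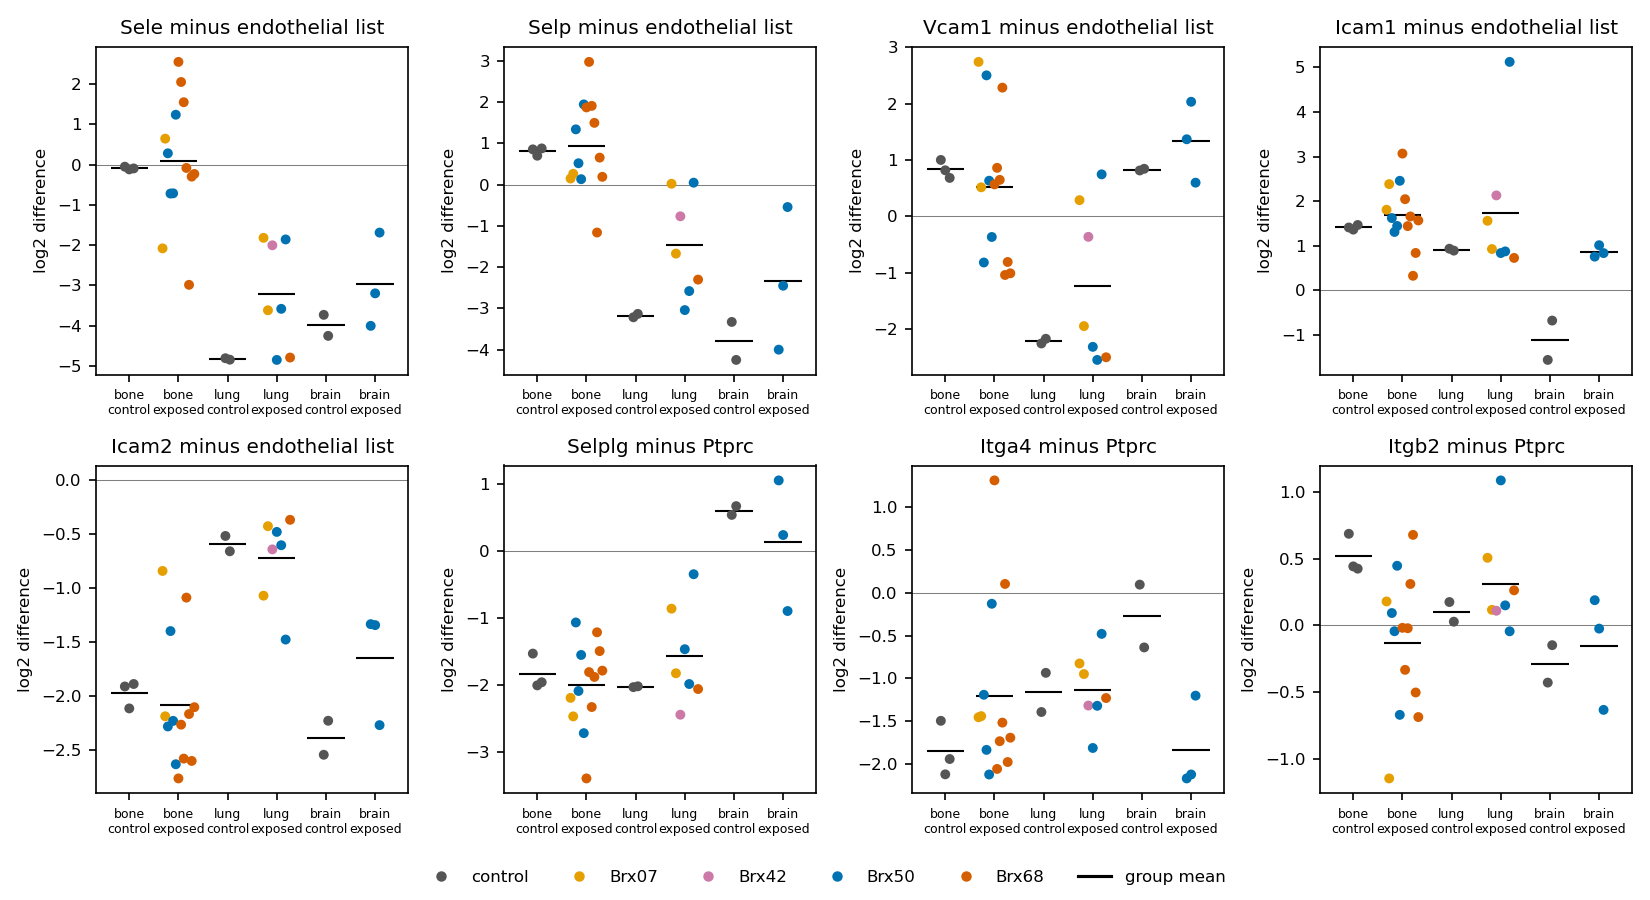
Each point is 1 library, placed by the gene's log2(CPM + 1) minus that of its marker (endothelial list or Ptprc), by tissue and exposure. Lung Selp lies above both controls in all 7 exposed libraries and brain Icam1 in all 3, while brain Itgb2 overlaps with its controls. The share of all genes that keep to one side on this scale was not counted.

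Genes whose levels went with a member's over the 30 libraries, after removal of each group's mean, fell into sets. Itgb2 went most closely with Nfam1, Myo1f and Cybb (r 0.98 each), genes known from myeloid cells. Selplg went with Tyrobp, Arhgap30 and Hcls1 (0.97, 0.96 and 0.95), and Itga4 with Nadk2 and Samsn1 (0.93 and 0.92). Icam2 went with Calcrl, Itga1 and Adgrl4 (0.94 each), of which Calcrl and Adgrl4 are known from endothelium. Sele went with Selp, Pax9 and Tnfrsf10b (0.92, 0.92 and 0.91), Selp with Sele, Emp1 and Tnfrsf10b (0.92, 0.92 and 0.89), and Icam1 with Slc41a1, Tmbim1 and Irx3 (0.92, 0.89 and 0.87). Itgb1 went with Sept2, Anxa5 and Rxylt1 (0.88, 0.87 and 0.87). Vcam1 had no close partner, since its highest values were 0.72 with Arl5b and with Coq10b. Among the members, Selplg and Itgb2 stood at 0.93 and Sele and Selplg at -0.84, while Icam2 stood at no more than 0.37 with any other. The Itga4 and Itgb1 chains of the Vcam1 receptor stood at -0.53. These are descriptions over 30 libraries, of which 13 are exposed bone.

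The wider adhesion pathway was read from 6 lists of genes that are not members. In exposed against control stroma none of the listed genes passed the threshold in any tissue by edgeR. In brain, 15 of 16 integrin partner chains, 10 of 10 genes of integrin activation, 11 of 11 tested NF-kB inducers and targets, 7 of 7 tested enzymes of selectin ligand synthesis, 6 of 6 tested selectin family genes and counter-receptors and 8 of 10 junction genes were fitted higher, against 51.6% of all genes. Itga5, the alpha chain of a fibronectin receptor, stood at 34.4 ± 7.64 CPM (SD, n = 3) against 8.54 ± 1.48 (n = 2) (log2 fold change 1.95, SE 0.33, adjusted p = 0.210 by edgeR). Birc3, an NF-kB target, stood at 35.2 ± 16.7 against 5.55 ± 1.76 CPM (2.59, SE 0.50, adjusted p = 0.231), and Vav1, an exchange factor of leukocytes, at 70.9 ± 18.1 against 15.3 ± 5.66 (2.15, SE 0.35, adjusted p = 0.210). In bone, 10 of 10 genes of integrin activation were fitted lower, with a median of -0.86 against 0.08 over all genes, and 8 of 10 in lung, with a median of -0.13. Of all genes, 57.2% were fitted higher in bone and 61.2% in lung. Gcnt1, an enzyme that builds the branched glycan selectins bind, had 36.8 ± 23.5 CPM (SD, n = 13) in exposed bone against 76.3 ± 4.86 (n = 3) in controls (-1.08, SE 0.50, adjusted p = 0.970 by edgeR). Itgal, an alpha chain that pairs with Itgb2, had 94.8 ± 119 against 301 ± 39.5 CPM in bone (-1.69, SE 1.23).

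Between tumour-free tissues many of these genes passed. For bone against lung, 4 of 16 integrin partner chains were higher and 8 lower, and of 10 junction genes 2 were higher and 8 lower, where 22.5% of all genes were higher and 22.3% lower. Cdh5, the cadherin of endothelial junctions, stood at 453 ± 38.3 CPM (SD, n = 3) in bone and 1928 ± 172 (n = 2) in lung (-2.12, SE 0.17, adjusted p = 6.55e-07 by edgeR). Of 12 NF-kB genes, 3 were lower in bone and none higher, a share near that of all genes. Gcnt1 was higher in bone, at 76.3 ± 4.86 against 40.3 ± 7.97 CPM (0.89, SE 0.14, adjusted p = 0.000286 by edgeR), and St3gal6, a sialyltransferase of selectin ligands, was lower, at 26.2 ± 0.32 against 76.8 ± 12.2 (-1.58, SE 0.15, adjusted p = 3.90e-06). Among counter-receptors, Cd24a was higher in bone (1.51, SE 0.13) and Podxl lower (-1.15, SE 0.15), with adjusted p = 1.59e-06 and 5.56e-05 by edgeR.

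The files do not state whether counting used strand. Exons of Selp overlap those of Gm16587 and Gm16548 on the opposite strand over 4.21% and 9.93% of its exon length, those of Icam1 overlap Gm47079 over 11.7%, of Itga4 Cerkl over 8.04% and of Vcam1 Gm43109 over 0.69%. Reads from these stretches cannot be assigned with certainty.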

How the data were processed

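The authors deposited raw counts per gene, whole numbers in 1 column per library, which were used as they stood. The submitters' processing notes name STAR 2.5.2b and HTSeq and list hg19, GRCh37, mm10 and GRCm38.p5 without roles. The sources used here do not say how strand was counted or how human reads were removed. Symbols (for 42462 IDs), positions and exon lengths came from GENCODE M21 on GRCm38.

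Groups came from the labels. The tests were run in edgeR 4.0.16 under R 4.3.3 (quasi-likelihood F-test, robust, TMM scaling, filterByExpr, Benjamini-Hochberg over all genes), tissue by tissue, with 1 fit of the controls, 1 of all 30 libraries for differences between tissues and 1 of exposed bone by line. CPM used library totals; CPM per kilobase divided them by the union of annotated exons. Marker-relative values were log2(CPM + 1) differences with exact permutation tests. A count of 0 was taken to allow 3 counts. Alternatives were DESeq2 1.42.0, limma 3.58.1 (voom with quality weights), other scalings, no filter on low counts, single CTC lines, exposed libraries in place of controls, a replicate block and each library left out; 2 exclusions of libraries were chosen after seeing the data. No pair of libraries in a group agreed within sampling noise (smallest chi-square per degree of freedom 9.64).

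All 9 members were named throughout. Pathway genes named were those of smallest p in a list and direction, and like genes the 3 of highest r with a mean of at least 10 CPM. Some genes that these rules name are not reported here. The members and lists were chosen with earlier results of these data known.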

Additional observations from a re-analysis of the deposited data

Results flagged for a closer look

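Each of the 9 genes was examined for a library far from the rest (Dixon's test at the 95% level). The groups were exposed bone Brx50 (4 libraries), exposed bone Brx68 (7) and exposed lung (7). Among these 27 sets 3 had such a library, and chance gives about 5%. All 3 were in exposed lung. Sele stood at 65.6 CPM in the Brx42 library, and the next value was 26.4. Icam1 stood at 1169 CPM in the same library, and the next value was 639. Selplg stood at 629 CPM in Brx50 replicate 3, and the next value was 240. That library also had an endothelial sum of 279 CPM and an Icam2 level of 3.53 CPM, and their part in its Selplg level was not tested. Lung had 1 Brx42 library, so the line and the library cannot be told apart.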

How the results depend on the processing

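The number of the 9 genes past the threshold was 0 in each exposed-against-control comparison and moved under 3 alternatives: limma-voom with quality weights called 3 in bone and 3 in brain, DESeq2 3 in brain and edgeR without the low count filter 1 in brain. Limma-voom also called 2 for the difference between bone and brain. For tumour-free bone against lung, exposed libraries in place of controls gave 3 calls instead of 8. Leaving out 1 library at a time gave 0 calls throughout for exposed against control, for the differences between tissues and for Brx68 against Brx50, 7 to 8 for tumour-free bone against lung, and 9 for each of the other tumour-free comparisons. The cause of these shifts was not tested. The share of all genes called is not given here for edgeR without the filter, exposed libraries in place of controls or libraries left out. Member counts in those runs cannot be set against all genes.

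Signs of log2 values turned for genes that passed no test in exposed against control stroma. Under limma-voom the bone values of Sele, Selp and Icam1 became -0.10, -0.14 and -0.054, and the lung values of Selplg, Icam1 and Icam2 became -0.43, -0.0019 and 0.0062. With Brx50 libraries alone, Itgb1 in bone became -0.027, and Vcam1, Icam1, Itga4 and Itgb2 in lung -0.53, -0.079, 0.11 and 0.11. Without the 2 lung libraries of lowest endothelial sum, Selplg and Icam2 became -0.47 and 0.13. Over single libraries left out, lung Selplg ran from -0.55 to 0.32 and lung Icam1 from -0.15 to 0.25. A called value turned as well: Selplg for tumour-free bone against brain, 1.89 in controls, became -0.91 (adjusted p = 0.465 by edgeR) with exposed in place of control libraries. The cause was not tested.

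Control libraries share replicate numbers across tissues. Correlations of the deviations of same-numbered libraries ran from -0.10 to 0.03 over 11048 genes by the numbers in the titles, and from 0.00 to 0.10 by those in the table's column names, which number the brain controls differently. The numbers were therefore not taken as pairs. A replicate block on the title numbers left 8, 9 and 9 calls in the tumour-free comparisons, and its share of all genes is not given here. Codes shared by exposed libraries were not checked. The spread among exposed bone libraries, the 2 controls in lung and in brain, and the few selectin counts in brain limit precision.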
